A study of Mus musculus with 30 samples.

Results

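Stra8, Rec8 and Smc1b are 3 genes of meiotic entry, taken by mouse symbol from the 49315 Ensembl genes in the deposited count files. All 3 passed the filter on low counts, which left 19323 genes tested. STRA8 is a retinoic acid-induced protein that works with MEIOSIN to switch on the meiotic programme. REC8 is the meiotic kleisin, the subunit that closes the cohesin ring in place of RAD21, and SMC1B is the meiotic counterpart of the ring subunit SMC1A.

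In the mouse fetus, germ cells of the ovary enter meiosis, and retinoic acid is a classical inducer of Stra8 there. Germ cells of the fetal testis do not enter meiosis, and the retinoic acid-degrading enzyme CYP26B1, which is made by the testis soma, is part of that block. Cohesin holds sister chromatids together in every dividing cell, and meiotic cells replace several of its subunits so that cohesion and chromosome axes suit recombination.

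RNA was sequenced from testes of C57BL/6 fetuses taken on gestational day 14, freed of the mesonephros and cultured for 24 h. All cultures, treated or not, held the solvent DMSO at the same dilution. Groups were vehicle (n = 15), 100 µM of the phthalate metabolite mono-(2-ethylhexyl) phthalate (MEHP, n = 6), 1 µM all-trans retinoic acid (ATRA, n = 5) and both compounds at those doses (MEHP + ATRA, n = 4). Vehicle libraries were split by the second number of their titles, whose meaning is not stated, into a lower range (416 to 457, n = 9) and an upper range (525 to 596, n = 6). Every MEHP library was in the upper range and every ATRA and MEHP + ATRA library in the lower, so each treatment was set against vehicle of its own range. Whether each library came from its own fetus or litter is not in the labels, so a p-value here measures the spread among libraries, which may be technical. The model is whole testis, in which germ cells are a minority beside Sertoli, Leydig and other somatic cells.

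Libraries held 17551454 to 29306917 counts. Sertoli cell markers, 13 genes with Sox9 and Amh among them, summed to group means from 3064 to 3526 CPM (counts scaled to library size, with TMM factors), and 16 germ cell markers to group means from 1050 to 1498 CPM, so both parts of a testis were present in every group. The summed level of 8 germ cell genes that are not meiotic (Ddx4, Dnd1, Piwil2, Tdrd1, Tdrd5, Rnf17, Mov10l1 and Tdrd9) averaged 919 CPM in lower vehicle, 773 in upper vehicle, 648 in MEHP, 868 in ATRA and 666 in MEHP + ATRA. In bulk RNA, fewer germ cells and less of an RNA in each germ cell cannot be told apart.

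The promoters of the 3 genes are shown because retinoic acid is known to act through DNA-bound receptors and because the genes moved together under ATRA. The windows run from 250 bases before to 50 after the RefSeq start on GRCm38.p6, and all 3 genes matched. Stra8 lies at chr6:34920698-34920997 on the plus strand, Rec8 at chr14:55617916-55618215 on the plus strand and Smc1b at chr15:85131908-85132207 on the minus strand. Capitals mark the single binding words of retinoid receptors (AGGTCA or AGTTCA or GGGTCA or GGTTCA), the CCAAT box (CCAAT) and the core of an E2F site (TTCCCGC), each searched on both strands, so that ATTGG is a CCAAT box on the other strand.

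Stra8: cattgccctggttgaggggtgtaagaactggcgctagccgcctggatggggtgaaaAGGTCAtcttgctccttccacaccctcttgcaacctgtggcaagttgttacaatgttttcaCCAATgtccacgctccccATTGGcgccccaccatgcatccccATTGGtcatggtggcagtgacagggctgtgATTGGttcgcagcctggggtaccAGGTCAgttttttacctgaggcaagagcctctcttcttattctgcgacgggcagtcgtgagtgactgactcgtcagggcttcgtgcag

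Rec8: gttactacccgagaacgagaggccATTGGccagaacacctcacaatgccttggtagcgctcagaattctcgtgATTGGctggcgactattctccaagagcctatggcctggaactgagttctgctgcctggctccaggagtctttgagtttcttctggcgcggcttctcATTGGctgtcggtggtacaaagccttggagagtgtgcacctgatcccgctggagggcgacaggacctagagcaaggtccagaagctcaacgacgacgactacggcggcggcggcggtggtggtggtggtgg

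Smc1b: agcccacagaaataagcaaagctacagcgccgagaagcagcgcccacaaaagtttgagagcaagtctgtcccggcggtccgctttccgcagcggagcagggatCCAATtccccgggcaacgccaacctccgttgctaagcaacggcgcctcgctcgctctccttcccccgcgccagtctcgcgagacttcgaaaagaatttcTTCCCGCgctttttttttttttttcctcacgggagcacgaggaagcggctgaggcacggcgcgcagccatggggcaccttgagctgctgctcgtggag

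Only the Stra8 window of the 3 held retinoid receptor words. Both read AGGTCA on the gene's own strand, at positions -194 to -189 and -38 to -33 from the start. At least 1 such word stood in 43.706% of the 32851 mouse promoters of the same length and at least 2 in 13.059%. None of the 3 windows held a pair of these words as a direct repeat with a spacing of 1, 2 or 5 bases, and such pairs stood in 0.222%, 0.268% and 0.097% of promoters.

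CCAAT boxes were shared by all 3 windows, with 4 in Stra8, 3 in Rec8 and 1 in Smc1b. At least 1 stood in 37.408% of promoters, at least 3 in 3.37% and at least 4 in 1.062%. The Smc1b window alone of the 3 held the E2F core TTCCCGC, at -48 to -42, a word found in 4.6% of promoters. The word CNCCTCAG, which is known as a STRA8-MEIOSIN motif and stood in 7.942% of promoters, was absent from all 3 windows, as were CACGTG (7.15%) and GGGCGG (35.658%). A match is a run of letters and not a measured binding site.

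In the files Stra8 spans chr6:34920163-34939344 with 10 merged exons, Rec8 spans chr14:55618037-55625395 with 17, and Smc1b spans chr15:85064691-85131957 on the minus strand with 25. For these positions no build, and for the counting no strand setting, is named in the sources used here. If the build is that of the windows, the Stra8 window lies wholly inside the counted span, past its first base. The Rec8 window then covers the first base of its own span. The binding words were sought around the RefSeq starts only. Rec8 ends 4 bases from the end of Ipo4, an importin gene on the opposite strand. Ipo4 held 135 ± 17.1 to 154 ± 7.15 CPM (mean ± SD by group) and passed the test in 0 of 7 contrasts (edgeR adjusted p of 0.202 at the lowest, with unadjusted p of 0.0875; 0 of 7 at an unadjusted p under 0.05 and 0 of 7 by DESeq2). Stra8 had no annotated neighbour within 5000 bases.

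Stra8, the switch of the meiotic programme, was the least abundant of the 3 genes per length in lower vehicle. Its level in lower vehicle ran from 1.24 to 9.04 CPM with a median of 3.85 (mean 4.31 ± 2.72, SD, n = 9). In upper vehicle it ran from 1.63 to 4.13 CPM with a median of 2.30 (mean 2.57 ± 1.01, n = 6). The vehicle ranges overlapped, and the lowest library, vehicle replicate 5, still held 28 Stra8 counts, with an exact Poisson 95% interval of 0.826 to 1.80 CPM that covers counting error only.

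With ATRA, Stra8 stood at 56.5, 168, 205, 144 and 135 CPM in replicates 1 to 5 (mean 142 ± 54.8). Every ATRA library was above every vehicle library, and replicate 1 was the lowest of the 5. Lying wholly above lower vehicle was seen for 4.95% of all genes with ATRA and for 9.14% with MEHP + ATRA. With MEHP + ATRA, Stra8 stood at 226, 243, 206 and 232 CPM in replicates 1 to 4 (mean 227 ± 15.3). The 4 libraries lay close together and all above the highest ATRA library.

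**Figure D1:**
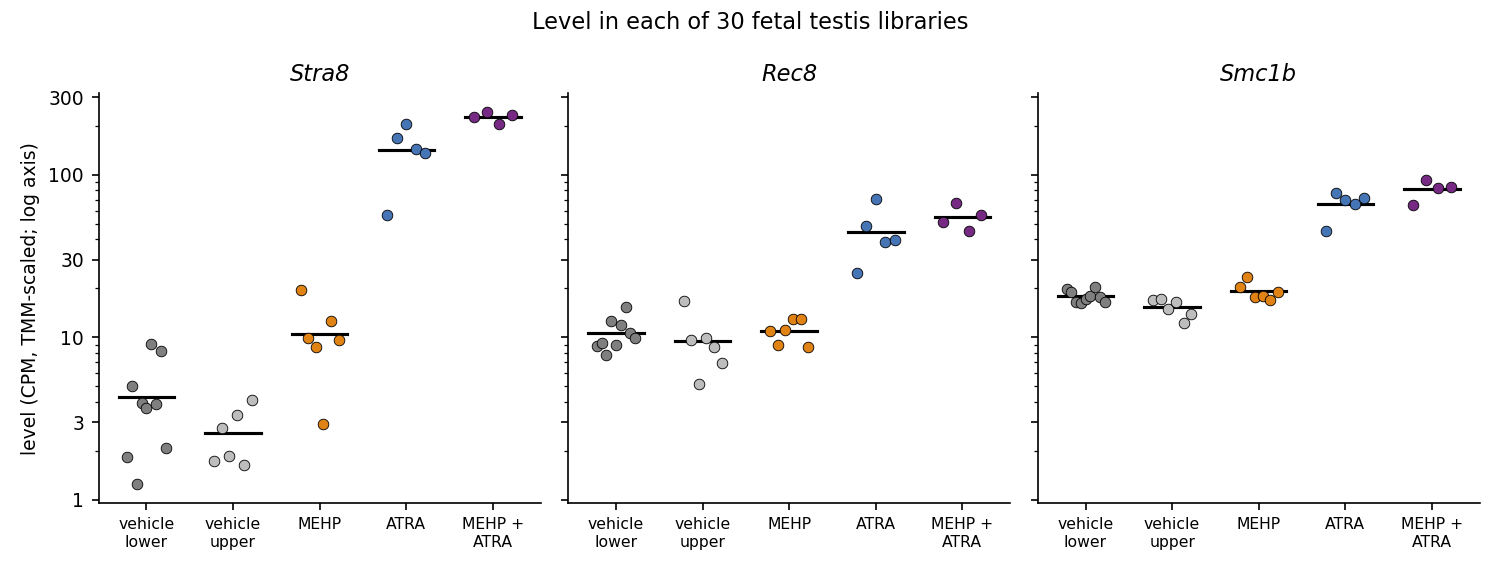
Level of Stra8, Rec8 and Smc1b in each of 30 libraries, in TMM-scaled CPM on a log axis, by group (9 lower vehicle, 6 upper vehicle, 6 MEHP, 5 ATRA and 4 MEHP + ATRA); points are libraries and bars are group means. All ATRA and MEHP + ATRA libraries lie above all vehicle libraries for each gene. Of 6 MEHP libraries, 5 lie above all upper vehicle libraries for Stra8, 5 for Smc1b and 0 for Rec8. Above all lower vehicle libraries lie 4 for Stra8, 2 for Smc1b and 0 for Rec8.

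The Stra8 fold change with ATRA was 32.6 (95% interval 20.7 to 51.3), a log2 fold change of 5.03 ± 0.32 (SE; edgeR adjusted p = 3.17e-13). It was the 3rd highest log2 fold change of the 19323 genes tested. With MEHP + ATRA the fold change was 52.1 (32.6 to 83.3), a log2 fold change of 5.70 ± 0.33 (adjusted p = 1.22e-14), the 4th highest. These contrasts called 18.1% and 29% of all genes in either direction.

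MEHP alone also raised Stra8. In the 6 MEHP libraries it ran from 2.91 to 19.5 CPM with a median of 9.71 (mean 10.5 ± 5.44). Of these, 5 lay above all 6 upper vehicle libraries and 4 above all 9 lower vehicle libraries. The library inside the upper vehicle range was MEHP replicate 4, at 2.91 CPM from 53 counts. The fold change was 4.14 (2.27 to 7.56), a log2 fold change of 2.05 ± 0.42 (adjusted p = 0.0021), the 5th highest of all genes in a contrast that called 4.72% of them. Leaving out any single library gave log2 fold changes from 1.78 to 2.24, all called.

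The MEHP level of Stra8 was far under that with both compounds: MEHP + ATRA exceeded MEHP by a log2 difference of 3.65 ± 0.58 (adjusted p = 5.63e-05), although those groups lie in different title ranges and the difference rests on the range term. Adding MEHP to ATRA gave a log2 difference of 0.68 ± 0.33 over ATRA alone, with a 95% interval from just under 0 to 1.36, an unadjusted p of 0.0489 and an adjusted p of 0.372. Intervals here use the 25 residual degrees of freedom alone and are slightly wider than those of the test, which adds degrees of freedom from all genes. All 4 MEHP + ATRA libraries were above all 5 ATRA libraries, a separation that 3.6% of all genes showed in that direction. Without ATRA replicate 1 the log2 difference was 0.48. With a block on the first title number it was 1.07 (adjusted p = 0.0567), so it passed the threshold in neither fit.

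On the log2 scale the MEHP effect with ATRA was smaller than without it by 1.37 ± 0.54 (interaction -1.37, 95% interval -2.49 to -0.25), with an unadjusted p of 0.0171 and an adjusted p of 0.879. The effect without ATRA comes from upper-range libraries and that with ATRA from lower-range ones. An interaction and a MEHP effect that differs by range therefore cannot be told apart. The interaction called 6 genes, 0.0311% of those tested, and none of the 3 genes was among them. The order of Stra8 levels was therefore upper vehicle, lower vehicle, MEHP, ATRA and MEHP + ATRA. The vehicle ranges (log2 difference -0.77 ± 0.43, adjusted p = 0.446, in a contrast that called 0.373% of genes) and ATRA and MEHP + ATRA were neighbours in that order whose difference did not pass the test. MEHP against ATRA, neighbours in that order too, was not tested, and MEHP was tested against vehicle with the range term and not against lower vehicle alone.

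Rec8, the meiotic kleisin, rose with ATRA and did not pass the test with MEHP alone. It ran from 7.73 to 15.2 CPM in lower vehicle (median 9.92, mean 10.5 ± 2.34) and from 5.14 to 16.8 CPM in upper vehicle (median 9.16, mean 9.51 ± 3.97). MEHP libraries ran from 8.65 to 13 CPM (median 11, mean 10.9 ± 1.83), wholly inside the vehicle values. The log2 fold change with MEHP was 0.20 ± 0.23 (95% interval -0.27 to 0.66, adjusted p = 0.784).

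Under ATRA, Rec8 stood at 24.6, 48.2, 71.0, 38.4 and 39.9 CPM in replicates 1 to 5 (mean 44.4 ± 17.1). The spread was wide, from replicate 1 at the bottom to replicate 3 at the top, and every library was above every vehicle library. Under MEHP + ATRA it stood at 51.1, 67.3, 45.1 and 56.5 CPM in replicates 1 to 4 (mean 55.0 ± 9.42), within the ATRA range. The fold change was 4.23 with ATRA (3.20 to 5.59; log2 2.08 ± 0.20, adjusted p = 1.3e-09) and 5.22 with MEHP + ATRA (3.91 to 6.99; log2 2.39 ± 0.20, adjusted p = 8.54e-11). The treated groups overlapped, and MEHP + ATRA differed from ATRA by a log2 value of 0.31 ± 0.23 (-0.17 to 0.78, adjusted p = 0.639).

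Smc1b, the meiotic ring subunit, had the smallest spread relative to its mean of the 3 genes in vehicle, MEHP and ATRA, though not in MEHP + ATRA, where Stra8 had. It ran from 16.3 to 20.5 CPM in lower vehicle (median 17.5, mean 17.9 ± 1.5) and from 12.2 to 17.3 CPM in upper vehicle (median 15.6, mean 15.2 ± 1.98). In MEHP it ran from 17.0 to 23.6 CPM (median 18.3, mean 19.2 ± 2.45), and 5 of 6 libraries lay above all upper vehicle libraries, while 2 of 6 lay above all lower vehicle libraries. The log2 fold change with MEHP was 0.34 ± 0.11 (95% interval 0.11 to 0.57), with an unadjusted p of 0.00516 and an adjusted p of 0.0852. It passed the threshold in 1 of 30 fits that left out a library, without ATRA replicate 1 (adjusted p = 0.0262).

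ATRA raised Smc1b to 45.1, 76.7, 70.1, 66.4 and 72.3 CPM in replicates 1 to 5 (mean 66.1 ± 12.3). Replicate 1 was again the lowest, as for Stra8 and Rec8. MEHP + ATRA gave 64.9, 93.1, 82.4 and 84.5 CPM in replicates 1 to 4 (mean 81.2 ± 11.8), with 3 of 4 libraries above all ATRA libraries. The fold change was 3.70 with ATRA (3.21 to 4.26; log2 1.89 ± 0.10, adjusted p = 3.05e-15) and 4.55 with MEHP + ATRA (3.93 to 5.27; log2 2.18 ± 0.10, adjusted p = 1.49e-16). Adding MEHP to ATRA gave a log2 difference of 0.30 ± 0.12 (0.06 to 0.54), with an unadjusted p of 0.0162 and an adjusted p of 0.21.

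All 3 genes were thus called higher with ATRA, with MEHP + ATRA and in MEHP + ATRA against MEHP, where 9.06%, 14.3% and 4.06% of all genes were called higher. With MEHP alone 1 of 3 was called higher, beside 2.88% of all genes. In MEHP + ATRA against ATRA, 0 of 3 were called, beside 3% of genes, with unadjusted p under 0.05 for Stra8 and Smc1b. The contrasts against vehicle share control libraries, so they are not independent of each other. By DESeq2, the count of called genes among the 3 was the same in each contrast.

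**Figure D2:**
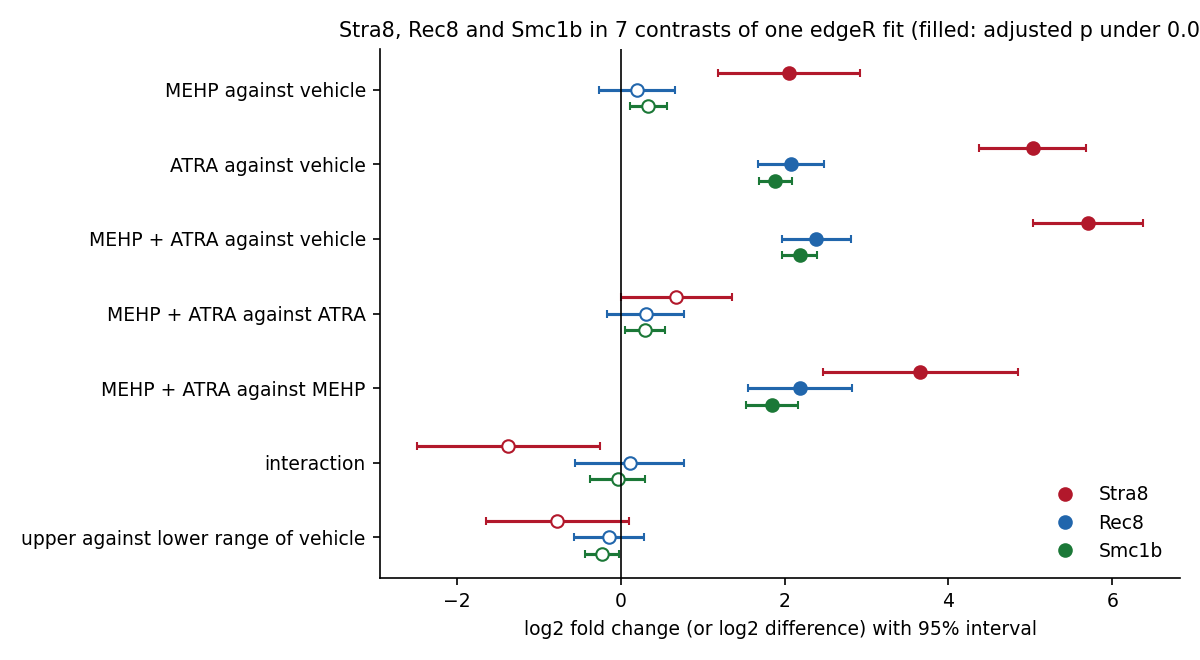
Log2 fold change or log2 difference of Stra8, Rec8 and Smc1b with its 95% interval in 7 contrasts of an edgeR fit over 30 libraries; filled points have an adjusted p under 0.05. ATRA and MEHP + ATRA moved all 3 genes upwards, with Stra8 at log2 5.03 and 5.70, and MEHP alone was called for Stra8 only (2.05).

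Compared per length of transcript, the order of the 3 genes changed between groups. In lower vehicle the level per length, as RPKM (counts scaled to library size and to the gene's merged exon length), was 4.43 ± 0.37 for Smc1b, 3.83 ± 0.85 for Rec8 and 2.39 ± 1.51 for Stra8. In MEHP Stra8 stood at 5.83 ± 3.02 RPKM beside 4.77 ± 0.61 for Smc1b and 3.97 ± 0.67 for Rec8. With ATRA it was 78.6 ± 30.4 RPKM for Stra8, 16.4 ± 3.05 for Smc1b and 16.2 ± 6.22 for Rec8, and with MEHP + ATRA 126 ± 8.47, 20.1 ± 2.92 and 20.01 ± 3.43.

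The mitotic counterparts of Rec8 and Smc1b were not called in any of the 3 contrasts against vehicle. Rad21, the kleisin of mitotic cohesin, was at 90.0 ± 3.23 to 95.9 ± 4.20 RPKM by group, and its log2 fold changes in MEHP, ATRA and MEHP + ATRA were -0.03 ± 0.04, -0.05 ± 0.04 and 0.02 ± 0.04 (adjusted p of 0.861, 0.479 and 0.767). Smc1a was at 33.2 ± 1.03 to 36.0 ± 1.65 RPKM, with log2 fold changes of -0.01 ± 0.05, -0.12 ± 0.05 and -0.02 ± 0.05 (adjusted p of 0.974, 0.126 and 0.808). These genes are expressed in all dividing cells, so their level describes the whole testis.

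The ratio of meiotic to mitotic subunit RNA was higher with ATRA. Rec8 RNA per length was 4.11% ± 0.81 of Rad21 RNA in lower vehicle, 3.59% ± 1.40 in upper vehicle and 4.22% ± 0.74 in MEHP. It was 18.1% ± 7.41 with ATRA and 21.1% ± 3.01 with MEHP + ATRA. Smc1b RNA was 12.3% ± 0.95 of Smc1a RNA in lower vehicle, 11% ± 1.79 in upper vehicle and 13.8% ± 1.30 in MEHP, against 49.3% ± 9.26 with ATRA and 56.7% ± 7.37 with MEHP + ATRA. Neither ratio overlapped between the retinoic acid groups and the others.

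The other meiotic subunits behaved differently from each other. Stag3, the meiotic partner of the kleisin, was already at 13.5 ± 3.09 RPKM in lower vehicle, above Rec8 and Smc1b there, and reached 22 ± 2.2 RPKM with ATRA and 22 ± 3.62 with MEHP + ATRA. Its log2 fold change was 0.70 ± 0.24 with ATRA (adjusted p = 0.0434) and 0.70 ± 0.26 with MEHP + ATRA (adjusted p = 0.0424). Those calls were lost in 10 and 9 of 30 fits that left out a library, with adjusted p up to 0.0924 and 0.141, and in 2 and 3 of 9 other fits, DESeq2 among them. Rad21l, the other meiotic kleisin, was at 1.82 ± 0.46 to 2.58 ± 0.61 RPKM in all groups and its log2 fold changes did not pass the test (0.01 ± 0.26, -0.09 ± 0.25 and -0.50 ± 0.27 in MEHP, ATRA and MEHP + ATRA).

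Of the 4 meiotic cohesin genes, 3 were therefore called higher with ATRA and with MEHP + ATRA and 0 lower. In those contrasts 9.06% and 14.3% of all genes were called higher and 9.03% and 14.7% lower. The median log2 values of the 4 genes were 1.29 and 1.44, beside -0.00 and -0.01 over all genes. Of the 5 mitotic and shared genes, Smc3, the partner of both SMC1 proteins in the ring, was called higher with ATRA (0.18 ± 0.05, adjusted p = 0.0118; lost without ATRA replicate 2, adjusted p = 0.0663). With MEHP + ATRA, Smc3 (0.24 ± 0.05, adjusted p = 0.00109) and Stag1 (0.14 ± 0.05, adjusted p = 0.0244) were called. The Stag1 call was lost in 2 of 30 fits that left out a library and in 3 of 9 other fits. Of the 9 genes of both lists, edgeR called 0 with MEHP alone and 0 in MEHP + ATRA against ATRA, as did DESeq2. By edgeR those contrasts called 4.72% and 3% of all genes, so 0 of 9 is close to that share. Smc1b was the 1 gene with an unadjusted p under 0.05 in each of these contrasts (0.00516 and 0.0162).

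**Figure D3:**
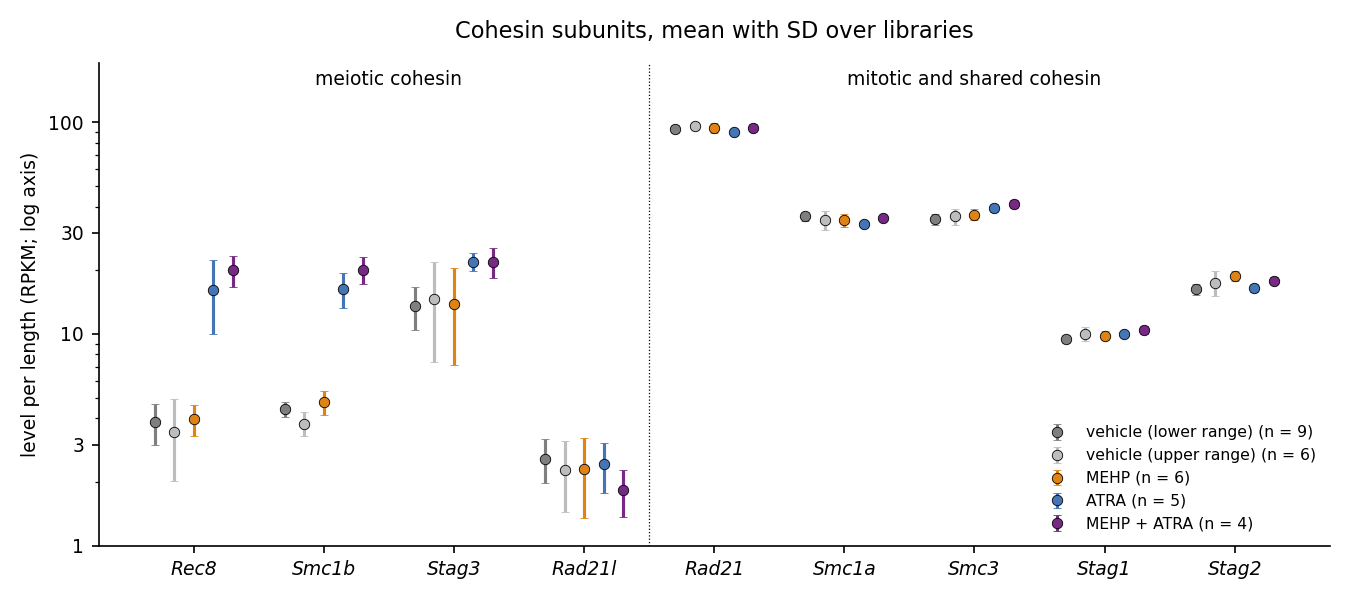
Level per length (RPKM, log axis) of 4 meiotic and 5 mitotic or shared cohesin genes by group; points are means and bars are SD over libraries. Rec8 and Smc1b rise from under 5 RPKM in vehicle and MEHP to between 16.2 and 20.1 RPKM with ATRA and MEHP + ATRA, while Rad21 and Smc1a stay within 90.0 to 95.9 and 33.2 to 36.0 RPKM.

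Genes that load, release or protect cohesin moved little beside Rec8 and Smc1b. Of 17 listed and 16 tested, 2 rose and 3 fell with ATRA, where 9.06% and 9.03% of all genes did, and 3 rose and 1 fell with MEHP + ATRA, where 14.3% and 14.7% did. The acetyltransferase Esco1 rose by a log2 value of 0.25 ± 0.08 and Esco2 by a smaller one, while Cdca5, which encodes sororin, and the centromeric protectors Sgo1 and Sgo2a fell (log2 fold changes of -0.30 ± 0.07, -0.28 ± 0.05 and -0.22 ± 0.06). The Sgo2a call was lost without ATRA replicate 1 (adjusted p = 0.0609) and the Esco1 call without ATRA replicates 2 or 3, singly (adjusted p up to 0.104). With MEHP + ATRA, Esco1 (0.33 ± 0.08), Esco2 (0.27 ± 0.08) and Meikin (1.00 ± 0.33), which acts at meiotic centromeres, rose and Cdca5 (-0.19 ± 0.07) fell. The Cdca5 call was lost in 9 of 30 fits that left out a library, the Meikin call in 2 and the Esco2 call in 1. Meikin was a gene of low counts, at an average log2 CPM of -1.05. With MEHP alone edgeR called 0 genes of this list, where it called 4.72% of all genes. In that contrast 2 of the list had an unadjusted p under 0.05 and DESeq2 called 1.

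The regulators upstream of Stra8 and beside it were counted in a list of 22 genes that holds Stra8 itself, of which 21 were tested and Zglp1, at most 7 counts, was not. With ATRA 9 rose and 2 fell, beside 9.06% and 9.03% of all genes, and with MEHP + ATRA 9 rose and 4 fell, beside 14.3% and 14.7%. In MEHP + ATRA against ATRA edgeR called 0 of the list, where it called 3% of all genes. In that contrast 4 of the list had an unadjusted p under 0.05 and DESeq2 called 1. Gm4969, which RefSeq names Bhmg1 with the synonym Meiosin, encodes the partner of STRA8 and stood at 6.82 ± 0.78 CPM in lower vehicle, 6.83 ± 1.83 in upper vehicle, 8.93 ± 1.20 in MEHP, 19.1 ± 2.75 in ATRA and 21.8 ± 4.67 in MEHP + ATRA. It rose by a log2 value of 1.48 ± 0.13 with ATRA (adjusted p = 2.87e-10) and 1.67 ± 0.14 with MEHP + ATRA (adjusted p = 2.53e-11). Its log2 fold change with MEHP was 0.39 ± 0.14 (unadjusted p = 0.0109, adjusted p = 0.138). Meioc, which keeps germ cells in meiotic prophase, rose by 1.54 ± 0.21 with ATRA (adjusted p = 2e-06) and had similar levels in both retinoic acid groups (11.5 ± 2.10 and 11.7 ± 1.03 CPM).

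Restraints on Stra8 moved in both directions. Cyp26b1, which degrades retinoic acid, rose by a log2 value of 0.89 ± 0.14 with ATRA and 1.16 ± 0.15 with MEHP + ATRA. With MEHP its value was 0.41 ± 0.15 (unadjusted p = 0.00904, adjusted p = 0.123). Nanos2, a repressor of Stra8 in male germ cells, fell by a log2 value of 1.86 ± 0.44 with ATRA (adjusted p = 0.00248) and 3.92 ± 0.60 with MEHP + ATRA (adjusted p = 4.84e-06). Its MEHP value of -0.80 ± 0.43 did not pass (adjusted p = 0.41). Dmrt1, a Sertoli and germ cell regulator, rose by a log2 value of 0.61 ± 0.09 with ATRA. It restrains Stra8 in the postnatal testis, a later stage than these cultures, so it is not counted as a restraint here.

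E2f6, a subunit of the repressor complex that holds meiotic genes silent, was the other regulator called with MEHP, at -0.18 ± 0.05 (adjusted p = 0.0324; lost in 6 of 30 fits that left out a library and 2 of 9 others). E2f6 fell by 0.47 ± 0.05 with MEHP + ATRA, a contrast that holds the effects of both compounds and not of MEHP alone. Its interaction was 0.05 ± 0.08 (edgeR unadjusted p = 0.568). Dazl, the germ cell RNA-binding protein needed for meiotic competence, had log2 values of -0.12 ± 0.16, 0.34 ± 0.15 and 0.31 ± 0.16 in MEHP, ATRA and MEHP + ATRA, none called. The germ cell helicase gene Ddx4 had values of -0.16 ± 0.16, 0.13 ± 0.15 and 0.02 ± 0.17, none called.

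Downstream, 43 genes of meiotic prophase were listed and 40 tested. With ATRA 20 rose and 1 fell (median log2 value 0.39), beside 9.06% and 9.03% of all genes. With MEHP + ATRA 19 rose and 2 fell (median 0.44), beside 14.3% and 14.7%. With MEHP alone edgeR called 0 of the list (median -0.06), where it called 4.72% of all genes. In that contrast 2 of the list had an unadjusted p under 0.05 and DESeq2 called 0. The recombinase Dmc1 rose by a log2 value of 0.78 ± 0.10 with ATRA (adjusted p = 6.34e-07), the axis protein gene Hormad1 by 1.26 ± 0.19 (adjusted p = 5.76e-06) and Terb2, which ties telomeres to the nuclear envelope, by 1.67 ± 0.25 (adjusted p = 9.21e-06). Terb2 had low counts, at an average log2 CPM of -0.20 beside 3.64 for Dmc1 and 3.79 for Hormad1. Spo11, which makes meiotic DNA breaks (-0.13 ± 0.13 with ATRA), and Sycp3, an axis protein (0.12 ± 0.18), did not pass, so the rise of Stra8, Rec8 and Smc1b was not matched by every gene of prophase. The gene that fell with ATRA, Trip13, an ATPase that strips HORMAD proteins from axes, was picked out after its values were seen (-0.25, adjusted p = 0.00579). Ugt8a, a lipid enzyme gene carried in the list, rose by 1.29 ± 0.19.

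For scale, 20 genes of retinoic acid response were listed and all were tested. With ATRA 15 rose and 3 fell, beside 9.06% and 9.03% of all genes, and with MEHP 2 rose and 1 fell, beside 2.88% and 1.84% of all genes. Among the rises with MEHP was Dhrs3, a retinaldehyde reductase (log2 0.57 ± 0.07, adjusted p = 1.33e-06), and the fall was Aldh1a1, a retinoic acid-making enzyme (-0.34 ± 0.09, adjusted p = 0.0157; lost without MEHP replicate 1, adjusted p = 0.0599). Cyp26a1, an inducible retinoic acid-degrading enzyme, rose by 6.10 ± 0.31 with ATRA, above Stra8, and had a log2 value of 0.78 ± 0.63 with MEHP (adjusted p = 0.649). Rarb, a receptor gene induced by its own ligand, rose by 3.85 ± 0.16 with ATRA and had a value of 0.56 ± 0.20 with MEHP (unadjusted p = 0.0102, adjusted p = 0.132). Dhrs3 also rose from ATRA to MEHP + ATRA (log2 0.46 ± 0.07), where 1.62% of all genes were called higher and Stra8, Rec8 and Smc1b did not pass.

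The 3 genes were also set against germ cell RNA, library by library. MEHP replicate 1 had the highest Stra8 of its group (19.5 CPM) and the lowest summed level of the 8 germ cell genes (321 CPM), and MEHP replicate 4 had the lowest Stra8 (2.91 CPM) and the highest sum (1047 CPM). ATRA replicate 3 had the highest Stra8 (205 CPM) and the lowest sum (498 CPM), and ATRA replicate 1 the lowest Stra8 (56.5 CPM) and the highest sum (1155 CPM), and the same libraries held the highest and lowest Rec8 of the ATRA group. In lower vehicle, replicates 9 and 13 had the highest Stra8 (9.04 and 8.18 CPM) and the lowest sums (720 and 498 CPM). Its lowest Stra8, in replicate 5 (1.24 CPM), stood beside a sum of 964 CPM. MEHP + ATRA and upper vehicle did not share this order. MEHP + ATRA replicate 2 had both the highest Stra8 (243 CPM) and the highest sum (855 CPM). Vehicle replicate 11 had both the lowest Stra8 (1.63 CPM) and the lowest sum (513 CPM) of upper vehicle. Sums ran from 498 to 1225 CPM in lower vehicle, 513 to 1122 in upper vehicle, 321 to 1047 in MEHP, 498 to 1155 in ATRA and 525 to 855 in MEHP + ATRA, and all groups overlapped.

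In a fit that added the mean log2 level of these 8 genes as a covariate beside treatment and range, Stra8 had a slope of -0.85 ± 0.20 log2 units per log2 unit of germ cell RNA (edgeR adjusted p = 0.00174). Rec8 had a slope of -0.03 ± 0.16 (adjusted p = 0.902) and Smc1b 0.08 ± 0.08 (adjusted p = 0.437). The covariate was called for 33.7% of all genes, 16.2% in the negative direction. Leaving out each library in turn gave slopes for Stra8 from -0.93 to -0.74, called in 30 of 30 fits. The difference between the slopes of the 3 genes was not tested.

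**Figure D4:**
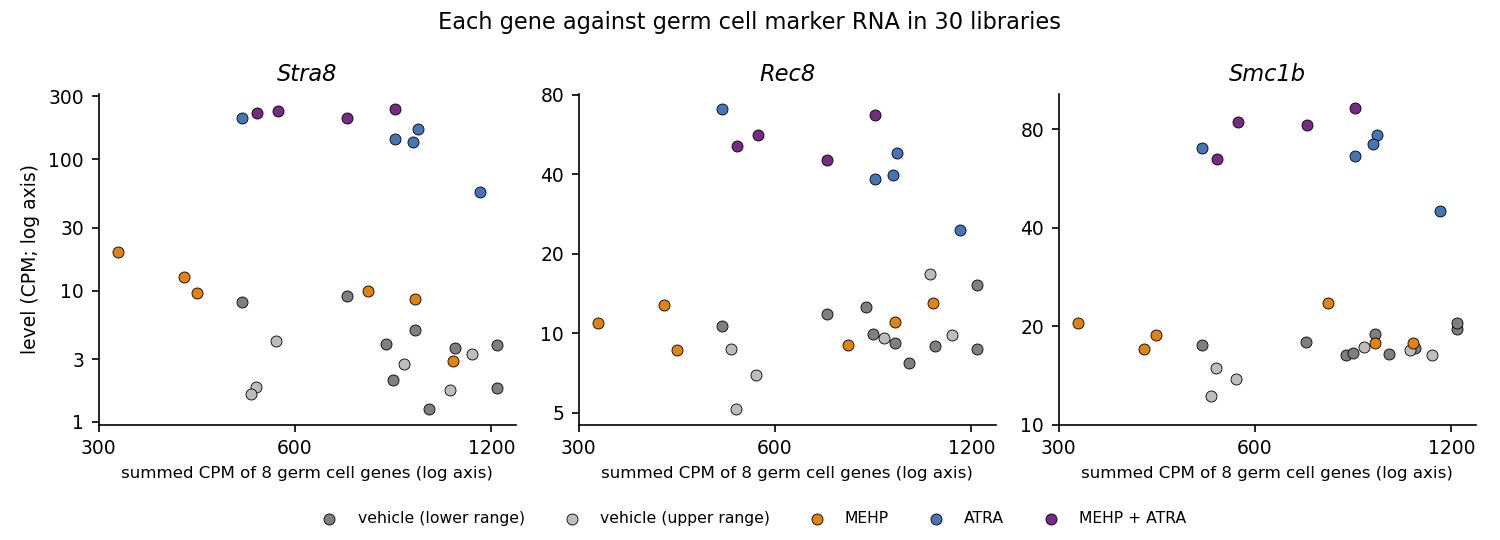
Level of Stra8, Rec8 and Smc1b (CPM, log axis) against the summed CPM of 8 germ cell genes (log axis) in 30 libraries; points are libraries, coloured by group. Within MEHP and ATRA the library with the lowest germ cell sum (321 and 498 CPM) has the highest Stra8 (19.5 and 205 CPM). In lower vehicle the lowest sums, in replicates 13 and 9 (498 and 720 CPM), go with the highest Stra8 (8.18 and 9.04 CPM). In MEHP + ATRA the highest sum (855 CPM) goes with the highest Stra8 (243 CPM) and in upper vehicle the lowest sum (513 CPM) with the lowest Stra8 (1.63 CPM).

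With that covariate the treatment calls of the 3 genes were the same. The log2 fold changes of Stra8 became 1.71 for MEHP, 4.95 for ATRA and 5.39 for both, and the log2 difference of MEHP + ATRA from ATRA became 0.44. Rec8 had 2.07 with ATRA and Smc1b 1.90. Of the 8 germ cell genes themselves, Tdrd5 was called lower with MEHP and with ATRA, and Tdrd5 and Dnd1 with MEHP + ATRA, so the covariate is not free of treatment. Markers of ovarian somatic cells, 8 genes in all, had a sum that averaged 235 CPM in lower vehicle, 221 in upper vehicle, 253 in MEHP, 325 in ATRA and 353 in MEHP + ATRA. With ATRA and with MEHP + ATRA 4 of the 8 rose, Foxl2, Wnt4, Runx1 and Bmp2, and Lhx9 fell (log2 -0.66 and -0.98), and with MEHP alone 1 rose, Wnt4 (0.67). Of the 13 Sertoli cell markers, 8 rose and 1, Amh, fell with ATRA and with MEHP + ATRA (median log2 values of 0.55 and 0.71), and 4 rose and Amh fell with MEHP. Of 6 endothelial markers, 4 rose with MEHP, 1 rose with ATRA, and 1 rose and 1 fell with MEHP + ATRA. Beside these counts, 2.88% of all genes were called higher and 1.84% lower with MEHP. The shares were 9.06% and 9.03% with ATRA, and 14.3% and 14.7% with MEHP + ATRA. The part of germ cell content in the Stra8 result was not tested beyond this fit, and that of the somatic markers was not tested.

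Relations between the 3 genes were tested only within groups of at least 6 libraries. ATRA (n = 5) and MEHP + ATRA (n = 4) were left out, although in ATRA replicate 1 was lowest and replicate 3 highest for both Stra8 and Rec8. The relation with the smallest p of 9 computed was Stra8 with Rec8 in lower vehicle, with Pearson r = 0.53 (exact permutation p = 0.144, adjusted 0.712) and Spearman rho = 0.65 (exact permutation p = 0.0666, adjusted 0.599; n = 9, two-sided). Without the 2 libraries farthest from the median of Stra8, r was 0.25. Rec8 and Smc1b had r = 0.33 in lower vehicle, 0.47 in upper vehicle and -0.67 in MEHP (exact permutation p of 0.384, 0.353 and 0.158; adjusted 0.749, 0.749 and 0.712), and without 2 libraries -0.56, 0.58 and -0.65. None of the 9 passed, and with 6 to 9 libraries a moderate relation could be missed.

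Across all 30 libraries, where treatment spreads the points, the patterns most like each gene were sought among 14110 genes by Pearson r of log2 CPM, as a description. For Stra8 they included Esyt3, Dhrs3, Oxnad1 and Nrp2 (r from 0.96 to 0.97). For Rec8 they were Kit, Ecm1, Clic6, Smc1b and Cdx1 (r = 0.95 for each), and for Smc1b they were Rbm44, Mpp6, Rarb, Dhrs3 and Ecm1 (r from 0.97 to 0.98). Smc1b was the 4th gene in the Rec8 list and the 11th in the Stra8 list, with r = 0.95 in both. All these points share the same libraries and the same 2 treatments.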

How the data were processed

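Cultures of mouse fetal testis gave 30 libraries of poly(A)-enriched RNA, made with reagents of the NEBNext Ultra II series according to the protocols in the labels. Each deposited file holds the whole-number read counts of 1 library in featureCounts layout, per the file headers. Tools named in the submitters' processing notes are Trimmomatic 0.36, bcl2fastq 2.20, DESeq2, STAR 2.5.2b and Subread 1.5.2 (featureCounts). No source used here names the genome build, annotation release or strand setting, so reads of neighbouring genes on opposite strands cannot be told apart.

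Counts were fitted with edgeR 4.0.16 in R 4.3.3: filterByExpr (minimum count 10), TMM scaling, and a quasi-likelihood model of treatment and title range over all 30 libraries with 25 residual degrees of freedom. Tests were two-sided F tests of 7 contrasts, with Benjamini-Hochberg adjustment over 19323 genes and a threshold of 0.05. Adjusted p-values are from this test unless another is named. SE was derived from F. CPM and RPKM were computed here from the counts, TMM-scaled library sizes and the gene lengths in the files. In simulated counts with 200 genes changed 2-fold among 19323, 80.5% (MEHP), 79% (ATRA) and 77% (MEHP + ATRA) were recovered. Of the calls, 5.85%, 3.07% and 4.35% were false. The simulated counts held no effect of title range or first title number, so they are simpler than the data. Promoters are from RefSeq tables.

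The 3 genes and the gene lists were chosen with earlier results of these data known. Named are the 3 genes, all cohesin genes, a panel of 11 regulators and markers, up to 4 called genes of smallest p from each other list per contrast, and the 5 most alike genes by r. A gene that this rule names is not reported here. No set test was run. Alternatives were DESeq2 1.42.0, no TMM, no filter, robust estimation, no range term, only libraries of a contrast's own range, a block on the first title number (over all or within a range), a germ cell covariate, and leaving out each library. Pairing was checked by correlating deviations from group means of treated and vehicle libraries with the same first title number. In the upper range all 4 numbers had r from 0.346 to 0.648, and in the lower range 5 numbers had r from 0.0832 to 0.472, 2 of them under 0.1. No 2 of the 30 libraries held identical counts.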

Additional observations from a re-analysis of the deposited data

How the results depend on the processing

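Across 807 combinations of a tested result for Stra8, Rec8 or Smc1b and an alternative, 799 kept the direction and the side of the threshold. The exception on the threshold was Smc1b with MEHP, called without ATRA replicate 1 (log2 fold change 0.34), with a range of 0.27 to 0.38 over libraries left out. The other exceptions were changes of sign of an interaction near 0: 0.10 for Smc1b with no range term, -0.15 to 0.0596 for Smc1b and -0.12 to 0.35 for Rec8 over libraries left out. The causes were not tested. With a replicate block on the first title number Stra8 with MEHP was 2.02 (2.01 with the block within range), and no call of the 3 genes changed under either block. Stra8 with MEHP ranged from 1.53 to 2.06 over the other fits.

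Counts of called genes moved by over 1.5 times as follows. MEHP went from 912 to 2229 with no range term and to 439 with its own range only. MEHP + ATRA against ATRA went from 579 to 967 with its own range only, 1371 with the first-number block and 340 without MEHP + ATRA replicate 1. MEHP + ATRA against MEHP went from 1601 to 3181 with no range term. The interaction went from 6 to 12 by DESeq2 and with the germ cell covariate, to 10 with no range term, to 3 and 2 with the blocks, and to 3 without MEHP + ATRA replicate 2. The difference between vehicle ranges went from 72 to 338 by DESeq2, 19 with no filter, 4 in vehicle alone, 42 with the block, 250 with the covariate, and from 10 to 169 over libraries left out.

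Stra8 rested on 28 to 236 counts in vehicle libraries and 53 to 371 in MEHP libraries. The meaning of the title ranges is unknown, and MEHP was run in the upper and ATRA in the lower range only, so contrasts across them rest on vehicle. The fits that leave out each library with the germ cell slope were added after seeing the data.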

Other observations

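Ribc2, a gene of ciliary doublet microtubules, starts 141 bases from the start of Smc1b on the opposite strand, so the pair share the sequence between them. Ribc2 did not pass the test in the contrasts that raised Smc1b. Its level was 0.82 ± 0.33 CPM in lower vehicle (n = 9), 1.18 ± 0.33 in ATRA (n = 5) and 0.95 ± 0.35 in MEHP + ATRA (n = 4), with log2 fold changes of 0.51 ± 0.34 with ATRA (edgeR adjusted p = 0.371) and 0.21 ± 0.38 with MEHP + ATRA (adjusted p = 0.742). It held only 4 to 36 counts per library, so a small change was not detectable at this depth. On the other side of Smc1b, Fam118a, 1862 bases away, was called higher with ATRA (0.18 ± 0.05, adjusted p = 0.00757) and MEHP + ATRA (0.28 ± 0.05, adjusted p = 1.12e-04), from 15.2 ± 0.93 CPM in lower vehicle to 17.2 ± 0.53 and 18.4 ± 0.84. Reads of Smc1b that run past its end could be counted there, and whether they were was not tested.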
